A study of Mus musculus with 12 samples.

Results

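RNA polymerase I and the factors that assemble ribosomes were followed in mouse embryonic stem (ES) cells during mTORi, inhibition of the kinase mTOR with INK128. The set holds 43 genes picked by symbol, 7 for RNA polymerase I and its initiation factors and 36 for factors that modify ribosomal RNA or build the ribosomal subunits. All 43 were found among the 54446 gene identifiers of each library. All 43 were also among the 15727 genes tested, whose mean over libraries reached 1 TPM (the share of a library's transcripts after division of reads by transcript length).

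There were 12 libraries, 2 in each of 6 groups. The groups were E14 KH cells, the wild type, and E14 DNMT3ABKO cells, a knockout of Dnmt3a and Dnmt3b, the enzymes that set DNA methylation anew, each at 0 h (untreated control) and after 72 and 144 h of mTORi. The study's methods name the wild-type line KH2 and place both lines on a layer of mitotically inactive feeder cells, from which viable single cells were sorted. Each genotype was represented by 1 line, and untreated cultures at 72 and 144 h are not among the libraries, so mTORi and time in culture cannot be told apart. The labels do not say how the replicates of a group were separated. The study's reporting summary describes its experiments as independent repeats in general terms, and the errors and p-values cover the spread between these libraries.

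RNA polymerase I transcribes the long ribosomal RNA precursor in the nucleolus, with Rrn3 joining the enzyme to its promoter factors and Ubtf holding ribosomal DNA open. Box C/D small nucleolar ribonucleoproteins (snoRNPs) guide methylation of the precursor and box H/ACA snoRNPs guide pseudouridylation, while large assemblies cut and fold it into the small and large subunits. mTOR is known as a main stimulator of this pathway in growing cells, in part through Rrn3.

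TPM are relative shares of each library and carry neither read depth nor the amount of RNA per cell, and spike-in rows were not listed. A change in TPM is therefore a change relative to the rest of a library's RNA, and in bulk samples fewer cells of a type and less RNA per cell cannot be told apart. With spike-in normalization the study reported global repression of the transcriptome under mTORi in wild-type cells. It also reported lower global transcription in Dnmt3a/b knockout cells, so a rise in TPM is not shown to be a rise per cell. Replicates correlated with r of 0.993 to 0.996 across tested genes in 5 groups and 0.985 for the DNMT3ABKO group at 0 h. The members' median absolute difference between replicates was 0.136 (log2) in that group and 0.033 to 0.093 in the others, and the widest gap was that of Nop10, at 58.0 TPM in replicate 1 and 104.6 TPM in replicate 2. Results that rest on this group are therefore also given without 1 of its libraries. In KH cells at 0 h 39 of the 43 members were lower in replicate 1 than in replicate 2, by a median of 0.092. The line labels held: Dnmt3a lay at 54.7 to 143.6 TPM in KH and 7.35 to 21.9 TPM in DNMT3ABKO libraries, and Dnmt3b at 142 to 258 and 12.7 to 27.5 TPM.

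The ES cell identity of the samples was checked with 12 markers, and none was under 1 TPM in both libraries of any group. Their summed level was 4820.1 to 5151 TPM in KH cells at 0 h and 7405 to 7524 TPM at 144 h, and 4790.4 to 4891 TPM and 7339 to 7373 TPM in DNMT3ABKO cells. Markers of other cell types were also present, with the highest sums at 0 h, and the source of their RNA was not tested. The summed level of 22 fibroblast markers was 3523.9 to 3913.7 TPM in KH cells at 0 h, 1568 to 1603 TPM at 72 h and 652 to 759 TPM at 144 h. In DNMT3ABKO cells it was 3839 to 4215, 1255 to 1325 and 528 to 545 TPM. Fibroblast markers thus fell with time in both lines, 20 of 21 tested in KH cells and 21 of 21 in DNMT3ABKO cells at 144 h. Lum was under 1 TPM in both libraries of each group at 72 and 144 h. The sum of 10 macrophage markers went from 294 to 318 TPM at 0 h to 20.9 to 21.3 TPM at 144 h in KH cells and from 257 to 282 to 37.1 to 38.2 TPM in DNMT3ABKO cells. At 144 h 8 of these 10 were under 1 TPM in both KH libraries, Adgre1, Csf1r and C1qa among them, and 5 in both DNMT3ABKO libraries. Every response from 0 h below moved beside these lower fibroblast and macrophage sums and the higher sum of ES cell markers, and their part in those responses was not tested.

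**Figure D1:**
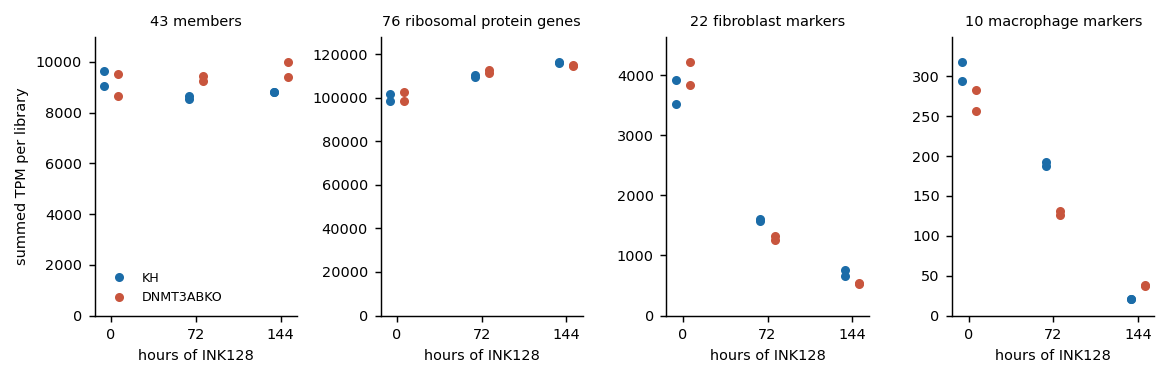
Summed TPM per library (vertical axes, linear, from 0) against hours of INK128, for the 43 members, 76 cytosolic ribosomal protein genes, 22 fibroblast markers and 10 macrophage markers; each point is 1 library, KH in blue and DNMT3ABKO in red. The members' sums stay between 8531 and 9984 TPM while the fibroblast sums go from at least 3524 TPM at 0 h to at most 759 TPM at 144 h. Npm1 and Ncl, with means of 3164 and 890 TPM over the libraries, weigh most in the members' sums.

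Promoter sequences of the members were compared, since members moved in opposite directions. RefSeq windows (GRCm38.p6, the assembly of mm10) from 250 bases before to 50 bases after a start were held for 39 members, and Fbl, Npm1, Rrp12 and Bop1 had no entry. A set of 4 motifs was searched on both strands. A gene was counted if any of its windows matched, and some genes have more windows than others. The E-box CACGTG, a palindrome bound by Myc with Max and by Tfe3, was in the windows of 9 of 39 members (23.1%), of 11.9% of the 10120 tested genes with an entry and of 8.09% of all 27025 genes. The ETS core CCGGAAG was in 14 of 39 (35.9%), against 20.5% and 9.93%. TCTCGCG was in 7 of 39 (17.9%), against 6.23% and 2.92%, and CCAAT, the core of the NF-Y site, in 12 of 39 (30.8%), against 44% and 41.1%. Ubtf, Wdr12 and Noc2l hold TCTCGCG in only some of their windows. A match is a description of the letters and not a bound site.

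Windows of 4 members are shown, 5′ to 3′ on the strand of the gene, with the E-box and the ETS core (either strand) in capitals, chosen after the results were seen. Rrn3 (chr16:13780449-13780748, plus strand) and Ltv1 (chr10:13193088-13193387, minus strand) both hold an E-box and ETS cores, yet Rrn3 rose and Ltv1 fell. Nhp2 (chr11:51619523-51619822, plus strand) and Noc3l (chr19:38819188-38819487, minus strand) were the members whose 144 h responses differed between lines, and each holds 1 ETS core and no E-box.
Rrn3: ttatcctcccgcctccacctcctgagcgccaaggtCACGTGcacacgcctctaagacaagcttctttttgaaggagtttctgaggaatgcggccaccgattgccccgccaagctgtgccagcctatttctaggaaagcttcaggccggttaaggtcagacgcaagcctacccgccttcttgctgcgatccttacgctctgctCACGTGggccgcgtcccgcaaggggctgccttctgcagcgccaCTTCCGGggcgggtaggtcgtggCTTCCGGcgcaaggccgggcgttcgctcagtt
Ltv1: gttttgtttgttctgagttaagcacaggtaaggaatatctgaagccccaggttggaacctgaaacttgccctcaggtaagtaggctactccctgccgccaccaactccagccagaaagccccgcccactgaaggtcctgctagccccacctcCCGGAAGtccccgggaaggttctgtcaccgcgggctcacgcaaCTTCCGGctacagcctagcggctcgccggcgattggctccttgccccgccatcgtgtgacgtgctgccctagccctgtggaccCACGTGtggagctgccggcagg
Nhp2: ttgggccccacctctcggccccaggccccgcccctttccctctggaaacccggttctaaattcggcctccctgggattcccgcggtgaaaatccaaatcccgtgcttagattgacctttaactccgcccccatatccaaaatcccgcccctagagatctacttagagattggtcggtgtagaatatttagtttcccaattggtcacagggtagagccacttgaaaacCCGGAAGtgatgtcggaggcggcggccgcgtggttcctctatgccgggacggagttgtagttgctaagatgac
Noc3l: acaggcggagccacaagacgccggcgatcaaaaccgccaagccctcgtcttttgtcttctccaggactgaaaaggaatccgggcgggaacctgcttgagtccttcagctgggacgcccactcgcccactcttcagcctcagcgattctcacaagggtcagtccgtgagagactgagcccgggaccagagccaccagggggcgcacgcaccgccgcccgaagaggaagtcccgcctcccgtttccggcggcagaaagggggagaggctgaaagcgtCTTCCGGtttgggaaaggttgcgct
Members with the E-box and members without it moved in both directions. Of the 9 that hold it, 1 rose and 3 fell in KH cells at 144 h, and of the 30 without it 5 rose and 10 fell, beside 27.4% and 23.9% of all tested genes. In DNMT3ABKO cells at 144 h 3 rose and 2 fell of the 9, and 9 rose and 5 fell of the 30, beside 31.4% and 26.2% of all tested genes.

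The question of how the members responded to mTORi was addressed by comparing 72 and 144 h with 0 h in each line. A gene was called at a limma adjusted p under 0.05 over all tested genes, and "rose" and "fell" are used for called genes alone. In KH cells at 72 h, 3 members rose (28.3% of all tested genes did) and 13 fell (19.5% of all tested genes). At 144 h 6 rose, against 27.4% of all tested genes, and 14 fell, against 23.9%. The members' median log2 fold change was -0.09 at 72 h and -0.04 at 144 h, beside 0.08 and 0.05 over all tested genes. Leaving out 1 library gave member medians of -0.137 to -0.03 at 72 h and -0.089 to -0.006 at 144 h, and median-ratio scaling gave -0.2 and -0.096. Among the 43 members the falls came to shares of 30.2% and 32.6%. The number of calls at 72 h went from 16 to 25 without DNMT3ABKO replicate 1 at 0 h, and that at 144 h from 20 to 11 without KH replicate 1 at 144 h.

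DNMT3ABKO cells showed more rises. At 72 h 14 members rose (34.3% of all tested genes) and 5 fell (21.6%), and at 144 h 13 rose (31.4%) and 7 fell (26.2%). The shares among members were 32.6% rising and 11.6% falling at 72 h, and 30.2% and 16.3% at 144 h, near or below the shares of all genes. The members' median log2 fold change was 0.06 and 0.08, beside 0.12 and 0.05 over all tested genes. The 72 h balance depended on the scale: rescaling by median ratios moved the median of all genes by -0.12. It gave 8 members higher and 12 lower, beside 28.5% and 30.2% of all tested genes, with a member median of -0.08. Without DNMT3ABKO replicate 1 at 0 h the members' medians were 0.02 at 72 h and 0.01 at 144 h. The medians over all tested genes dropped as well, to 0.04 and -0.01. When the contrast's groups were fitted alone, 15 of the 19 calls at 72 h and 11 of the 20 at 144 h were lost. Among the losses were Gnl3 and Nhp2 at 72 h and Pes1 and Polr1d at 144 h. The shares of all tested genes called were then 37.7% and 41.8%. The number of calls at 72 h went from 19 to 9 without DNMT3ABKO replicate 1 at 72 h, and that at 144 h from 20 to 13 without replicate 2 at 144 h.

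In all, 34 members were called in at least 1 of these 4 responses and none rose in one and fell in another. The same counts over all tested genes were not taken, so these are not read as particular to the members. Of all tested genes, 56% were called in the DNMT3ABKO response at 72 h and 57.6% in that at 144 h. Polr1a and Ubtf rose in all 4. Nhp2, Ltv1, Nop16, Mrto4 and Nle1 fell in all 4. The 9 members called in none were Polr1c, Polr1e, Npm1, Nolc1, Fbl, Dkc1, Wdr43, Noc4l and Grwd1. Both libraries of every called member lay beyond both libraries of the other group. This was also so for many members not called, and it was not counted over all genes. In KH cells 16 of those lay apart and 11 overlapped at 72 h, and 11 and 12 at 144 h. The DNMT3ABKO numbers were 12 and 12 at 72 h and 6 and 17 at 144 h. Because the 72 and 144 h responses of a line share their 0 h libraries, their agreement is not independent.

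**Figure D2:**
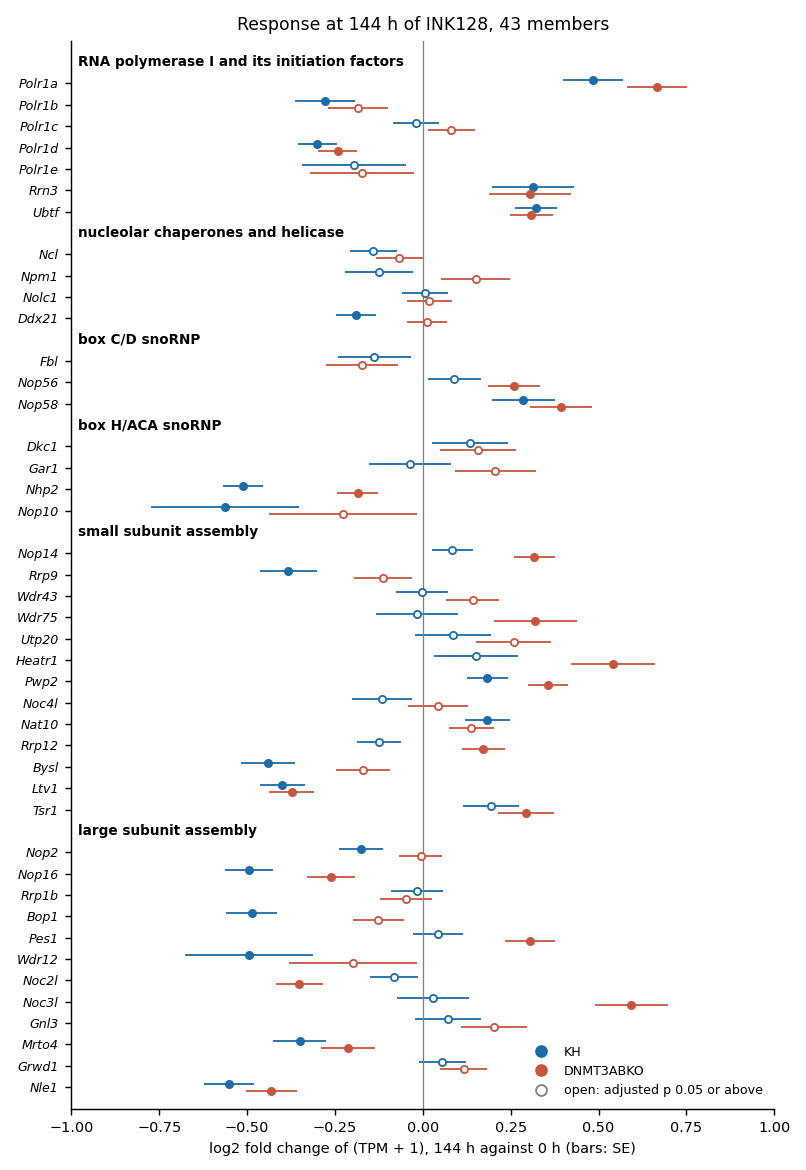
Log2 fold change of TPM + 1 at 144 h against 0 h (horizontal axis, bars are standard errors) for the 43 members, grouped by role; KH in blue and DNMT3ABKO in red, filled where the limma adjusted p was under 0.05 and open otherwise. Polr1a lies farthest to the right in both lines, at 0.48 and 0.67, while Nop10 in KH cells and Nle1 in DNMT3ABKO cells lie farthest to the left, at -0.56 and -0.43.

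The genes of RNA polymerase I went apart. Polr1a (chr6:71909053-71984935 in mm10) encodes the largest, catalytic subunit. In KH libraries it stood at 43.3 and 47.1 TPM at 0 h, 57.7 and 59.1 TPM at 72 h and 65.0 and 62.2 TPM at 144 h. In DNMT3ABKO libraries it stood at 40.1 and 47.9 TPM at 0 h, 66.0 and 68.5 TPM at 72 h and 70.1 and 70.1 TPM at 144 h. All treated libraries lay above all 0 h libraries of their line, with log2 fold changes (± SE, n = 2 per group) in KH cells of 0.36 ± 0.09 at 72 h and 0.48 ± 0.09 at 144 h. In DNMT3ABKO cells they were 0.61 ± 0.09 and 0.67 ± 0.09, and these 4 calls were kept under all 18 alternatives. Polr1b (chr2:129100995-129126594), the second large subunit, which completes the catalytic centre, stood at 84.5 and 89.6 TPM at 0 h, 75.7 and 72.3 TPM at 72 h and 71.5 and 71.5 TPM at 144 h in KH libraries. In DNMT3ABKO libraries it stood at 73.6 and 88.9 TPM at 0 h, 76.6 and 80.1 TPM at 72 h and 71.9 and 70.3 TPM at 144 h. It fell in KH cells, with log2 fold changes of -0.23 ± 0.09 and -0.28 ± 0.09, and did not pass in DNMT3ABKO cells, where the 72 h libraries lay between those at 0 h. The fall at 72 h was lost on leaving out any 1 of 10 libraries (adjusted p up to 0.204, without KH replicate 2 at 72 h) and that at 144 h on leaving out any 1 of 3 (up to 0.102, without KH replicate 2 at 0 h).

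The ratio of Polr1a to Polr1b TPM within a library, which does not depend on how libraries are scaled, was 0.512 and 0.526 in the KH libraries at 0 h. It was 0.762 and 0.818 in those at 72 h, and in those at 144 h it was 0.909 and 0.870. In DNMT3ABKO cells it was 0.544 and 0.538, then 0.862 and 0.856, then 0.975 and 0.998. The groups of each line did not overlap, and the ratio was higher in each treated library than in each library at 0 h. The ratio is given as a description, with no test.

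Polr1d (chr5:147077050-147111597) encodes a small assembly subunit shared with RNA polymerase III. It stood at 117 and 122 TPM at 0 h, 107 and 107 TPM at 72 h and 96.8 and 96.5 TPM at 144 h in KH libraries and at 109 and 108 TPM at 0 h, 116 and 117 TPM at 72 h and 89.5 and 93.9 TPM at 144 h in DNMT3ABKO libraries. Levels were lowest at 144 h in both lines, with log2 fold changes of -0.30 ± 0.06 and -0.24 ± 0.06 against 0 h, and in DNMT3ABKO cells the fall came between 72 and 144 h (-0.34 ± 0.06). The smaller fall of KH cells at 72 h (-0.15 ± 0.06) was lost without any 1 of 10 libraries, with an adjusted p of up to 0.177 without KH replicate 2 at 0 h. Of the 50-base words of Polr1d transcripts, 10.8% also occur in another gene, so part of its reads could have been assigned elsewhere.

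Polr1c, the partner of Polr1d that is likewise shared with RNA polymerase III, stood at 171 and 179.6 TPM at 0 h, 166 and 159.6 TPM at 72 h and 172 and 174 TPM at 144 h in KH libraries and at 157 and 143 TPM at 0 h, 143 and 145 TPM at 72 h and 165 and 153 TPM at 144 h in DNMT3ABKO libraries. No contrast of Polr1c passed, although at each time both DNMT3ABKO libraries were below both of KH. Polr1e, a subunit of the module that helps initiation, was the member with the lowest level, at 20.2 and 26.1 TPM at 0 h, 18.1 and 21.6 TPM at 72 h and 19.2 and 20.7 TPM at 144 h in KH libraries. In DNMT3ABKO libraries it stood at 20.0 and 24.3 TPM at 0 h, 15.6 and 19.0 TPM at 72 h and 20.5 and 18.4 TPM at 144 h. Its replicates spread widely, and no contrast passed.

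The initiation factors rose in both lines. Rrn3 (chr16:13780708-13814839) stood at 149.9 and 174 TPM at 0 h, 198 and 196 TPM at 72 h and 204 and 199 TPM at 144 h in KH libraries and at 137 and 182 TPM at 0 h, 197 and 194 TPM at 72 h and 193 and 198 TPM at 144 h in DNMT3ABKO libraries. Treated libraries lay close together and above those at 0 h, which differed widely. In KH cells the log2 fold change was 0.28 ± 0.12 at 72 h (limma adjusted p = 0.0695, not called) and 0.31 ± 0.12 at 144 h (adjusted p = 0.0454). In DNMT3ABKO cells it was 0.31 ± 0.12 and 0.30 ± 0.12. The 3 calls stood near the threshold: each was lost without any 1 of 9 libraries, and the adjusted p reached 0.259 in KH cells without KH replicate 1 at 0 h and 0.316 in DNMT3ABKO cells without DNMT3ABKO replicate 1 at 0 h. Ubtf (chr11:102304560-102319742) stood at 142 and 141 TPM at 0 h, 171 and 181 TPM at 72 h and 178 and 175 TPM at 144 h in KH libraries and at 145 and 139.8 TPM at 0 h, 164 and 170.2 TPM at 72 h and 170.2 and 183 TPM at 144 h in DNMT3ABKO libraries. Its libraries at 0 h agreed closely, and all treated libraries lay above them, with log2 fold changes of 0.32 ± 0.06 and 0.32 ± 0.06 in KH cells. In DNMT3ABKO cells the rises were 0.23 ± 0.06 and 0.31 ± 0.06. Both KH calls of Ubtf were kept under all 18 alternatives, and the DNMT3ABKO call at 72 h was lost without DNMT3ABKO replicate 2 at 72 h (adjusted p = 0.0698), with median-ratio scaling, and when the contrast's groups were fitted alone.

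**Figure D3:**
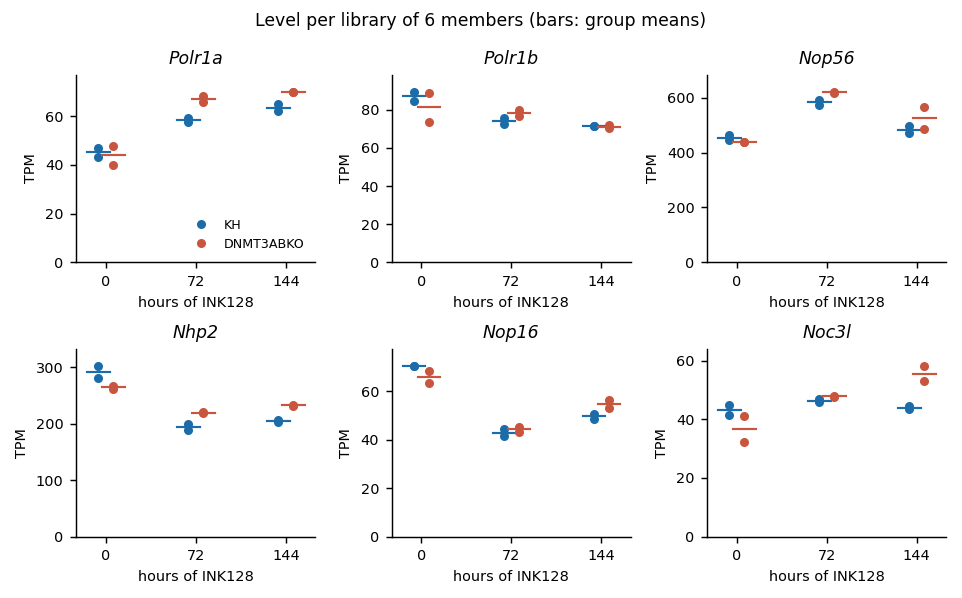
TPM (vertical axes, linear, from 0) of Polr1a, Polr1b, Nop56, Nhp2, Nop16 and Noc3l against hours of INK128; each point is 1 library and each bar a group mean, KH in blue and DNMT3ABKO in red. Polr1a rises while Polr1b does not, Nop56 is highest at 72 h, and Noc3l separates the lines at 144 h, at 43.5 and 44.5 TPM in KH and 52.9 and 58.2 TPM in DNMT3ABKO libraries.

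Among the nucleolar chaperones were the most abundant members, Npm1 and Ncl, and no chaperone was called from 0 h in DNMT3ABKO cells. Npm1 (chr11:33152287-33163206), which encodes nucleophosmin, a histone and ribosome chaperone, stood at 3077 and 3324 TPM at 0 h, 2630.3 and 2785 TPM at 72 h and 2954 and 2909 TPM at 144 h in KH libraries. In DNMT3ABKO libraries it stood at 2959 and 3604 TPM at 0 h, 3333 and 3141 TPM at 72 h and 3477 and 3778 TPM at 144 h. No response from 0 h passed for Npm1, whose transcripts share 24.3% of their 50-base words with other genes. Ncl (chr1:86344719-86359400), nucleolin, stood at 902 and 929 TPM at 0 h, 793 and 819 TPM at 72 h and 839 and 822 TPM at 144 h in KH libraries and at 989 and 939.8 TPM at 0 h, 926 and 878 TPM at 72 h and 873 and 970.3 TPM at 144 h in DNMT3ABKO libraries. Ncl fell in KH cells at 72 h (-0.18 ± 0.07), a call lost without any 1 of 8 libraries (adjusted p up to 0.2, without KH replicate 1 at 72 h). Nolc1, a snoRNP chaperone, stood at 229 and 253 TPM at 0 h, 246 and 237 TPM at 72 h and 243 and 241 TPM at 144 h in KH libraries and at 233 and 233 TPM at 0 h, 251 and 236 TPM at 72 h and 233 and 239.8 TPM at 144 h in DNMT3ABKO libraries. Its fitted log2 fold changes were 0.00 to 0.06 in the 4 responses, and none passed. Ddx21 (chr10:62580251-62602281), an RNA helicase that acts at ribosomal DNA, stood at 274 and 292 TPM at 0 h, 215 and 216 TPM at 72 h and 251 and 245 TPM at 144 h in KH libraries and at 261 and 268 TPM at 0 h, 243 and 240.3 TPM at 72 h and 261 and 272 TPM at 144 h in DNMT3ABKO libraries. In KH cells it dropped at 72 h (-0.39 ± 0.06) and partly returned by 144 h (0.20 ± 0.06 against 72 h), and no response passed in DNMT3ABKO cells. The 72 h fall was kept under all 18 alternatives, while the return was lost without any 1 of 6 libraries (adjusted p up to 0.172, without KH replicate 1 at 144 h).

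Among the box C/D proteins the paired scaffold genes rose and the methyltransferase did not. Nop58 (chr1:59684971-59719044) stood at 167 and 193 TPM at 0 h, 206 and 208 TPM at 72 h and 217 and 222 TPM at 144 h in KH libraries and at 149.6 and 176 TPM at 0 h, 195 and 210.0 TPM at 72 h and 215 and 212 TPM at 144 h in DNMT3ABKO libraries. Its 144 h libraries lay above those at 0 h in both lines, with log2 fold changes of 0.29 ± 0.09 and 0.39 ± 0.09. The KH call was lost without KH replicate 1 at 0 h (adjusted p = 0.162) or either KH library at 144 h, and the DNMT3ABKO call was kept under all 18 alternatives. Fbl, fibrillarin, the methyltransferase of these particles, stood at 286 and 265 TPM at 0 h, 251 and 252 TPM at 72 h and 256 and 245 TPM at 144 h in KH libraries and at 304 and 235 TPM at 0 h, 235 and 244 TPM at 72 h and 232 and 242 TPM at 144 h in DNMT3ABKO libraries. Fbl passed in no contrast, and 19.0% of its 50-base words occur in other genes. Nop56 (chr2:130274430-130279313), the partner of Nop58, was singled out after its values were seen, because it had a peak at 72 h. It stood at 445 and 464 TPM at 0 h, 593 and 574 TPM at 72 h and 470.2 and 497 TPM at 144 h in KH libraries and at 439.8 and 437 TPM at 0 h, 617 and 623 TPM at 72 h and 486 and 567 TPM at 144 h in DNMT3ABKO libraries. The 72 h libraries lay above all others in both lines. Against 0 h the rise was 0.36 ± 0.07 in KH and 0.50 ± 0.07 in DNMT3ABKO cells, both kept under all 18 alternatives. From 72 to 144 h it fell, with log2 fold changes of -0.27 ± 0.07 and -0.24 ± 0.07, calls lost under median-ratio scaling and without any 1 of 4 libraries in KH and of 7 in DNMT3ABKO cells (adjusted p up to 0.171 and 0.296, each without the line's replicate 1 at 144 h).

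The box H/ACA genes fell in part. Nhp2 (chr11:51619735-51623714) encodes a core protein that binds the guide RNA. It stood at 282 and 303 TPM at 0 h, 199 and 189 TPM at 72 h and 203 and 207 TPM at 144 h in KH libraries and at 261 and 268 TPM at 0 h, 220.0 and 218 TPM at 72 h and 232 and 234 TPM at 144 h in DNMT3ABKO libraries. All treated libraries lay below those at 0 h, with log2 fold changes of -0.59 ± 0.06 and -0.51 ± 0.06 in KH cells under all 18 alternatives. The DNMT3ABKO falls were -0.27 ± 0.06 and -0.19 ± 0.06, and the latter was lost without either library at 144 h (adjusted p up to 0.0861). Nop10, the smallest protein of the particle, stood at 89.6 and 109.6 TPM at 0 h, 69.0 and 73.6 TPM at 72 h and 69.6 and 64.0 TPM at 144 h in KH libraries and at 58.0 and 105 TPM at 0 h, 75.9 and 79.9 TPM at 72 h and 67.7 and 65.1 TPM at 144 h in DNMT3ABKO libraries. It fell in KH cells at 144 h (-0.56 ± 0.21, adjusted p = 0.0463), a call lost without any 1 of 10 libraries and reaching 0.225 without KH replicate 2 at 0 h. Dkc1, dyskerin, the pseudouridine synthase, stood at 163 and 174 TPM at 0 h, 182 and 188 TPM at 72 h and 187 and 183 TPM at 144 h in KH libraries and at 136 and 178 TPM at 0 h, 170.2 and 170.0 TPM at 72 h and 166 and 181 TPM at 144 h in DNMT3ABKO libraries. It passed in no contrast, and the ratio of Nhp2 to Dkc1 TPM went from 1.73 and 1.74 in KH cells at 0 h to 1.08 and 1.13 at 144 h, and from 1.93 and 1.5 to 1.39 and 1.29 in DNMT3ABKO cells. Gar1, the last core protein, stood at 61.4 and 64.1 TPM at 0 h, 62.4 and 62.0 TPM at 72 h and 62.9 and 59.4 TPM at 144 h in KH libraries and at 43.5 and 58.4 TPM at 0 h, 66.8 and 67.7 TPM at 72 h and 55.3 and 61.4 TPM at 144 h in DNMT3ABKO libraries. It rose in DNMT3ABKO cells at 72 h (0.41 ± 0.12), and the call was lost without either library of that group (adjusted p up to 0.06) but not without replicate 1 at 0 h.

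Of 13 small subunit assembly factors, 6 rose and 1 fell in DNMT3ABKO cells at 144 h, beside 31.4% and 26.2% of all tested genes. In KH cells 2 rose and 3 fell, beside 27.4% and 23.9%, and the difference between the lines was not itself tested over the group. Heatr1 (chr13:12395027-12440289) is a large scaffold of the early processome that also aids transcription of ribosomal DNA. It stood at 92.4 and 105 TPM at 0 h, 102 and 105 TPM at 72 h and 114 and 105 TPM at 144 h in KH libraries and at 72.3 and 96.6 TPM at 0 h, 119 and 112 TPM at 72 h and 121 and 123 TPM at 144 h in DNMT3ABKO libraries. The DNMT3ABKO libraries at 0 h lay below the treated ones, with log2 fold changes of 0.46 ± 0.12 and 0.54 ± 0.12, whereas groups overlapped in KH cells. The 72 h call was lost without DNMT3ABKO replicate 1 at 72 h (adjusted p = 0.0542). Tsr1, a late factor of the cytoplasmic pre-subunit, stood at 125 and 134 TPM at 0 h, 142 and 141 TPM at 72 h and 147 and 149.6 TPM at 144 h in KH libraries and at 110.3 and 131 TPM at 0 h, 142 and 146 TPM at 72 h and 146 and 149 TPM at 144 h in DNMT3ABKO libraries. It rose in DNMT3ABKO cells (0.26 ± 0.08 and 0.29 ± 0.08), and the 72 h call was lost without DNMT3ABKO replicate 1 at 0 h or either library at 72 h (adjusted p up to 0.0941), the 144 h call without replicate 2 at 144 h (adjusted p = 0.0561).

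The small subunit factors that fell were Ltv1, Bysl and Rrp9. Ltv1 (chr10:13178140-13193168), an export and maturation factor, stood at 55.8 and 59.6 TPM at 0 h, 42.5 and 42.7 TPM at 72 h and 43.03 and 44.0 TPM at 144 h in KH libraries and at 56.2 and 53.9 TPM at 0 h, 36.8 and 36.2 TPM at 72 h and 40.8 and 43.8 TPM at 144 h in DNMT3ABKO libraries. Treated libraries lay below those at 0 h in both lines, with log2 fold changes of -0.43 ± 0.07 and -0.40 ± 0.07 in KH cells. The DNMT3ABKO falls were -0.58 ± 0.07 and -0.37 ± 0.07, and all 4 calls were kept under all 18 alternatives. Bysl (chr17:47599331-47611492), bystin, which joins late nuclear maturation, stood at 42.5 and 44.1 TPM at 0 h, 35.9 and 31.3 TPM at 72 h and 31.4 and 31.8 TPM at 144 h in KH libraries and at 44.4 and 41.4 TPM at 0 h, 39.0 and 38.1 TPM at 72 h and 37.5 and 38.6 TPM at 144 h in DNMT3ABKO libraries. It fell in KH cells, with log2 fold changes of -0.36 ± 0.08 and -0.44 ± 0.08, under all 18 alternatives. The fits of -0.15 ± 0.08 and -0.17 ± 0.08 in DNMT3ABKO cells did not pass. Rrp9, a protein of the U3 snoRNP, which acts early, fell in KH cells at both times (-0.32 ± 0.08 and -0.38 ± 0.08), the first not without KH replicate 2 at 72 h (adjusted p = 0.0912). Pwp2, an early processome scaffold, rose in both lines at 144 h (0.18 ± 0.06 and 0.36 ± 0.06), and Nat10, an RNA acetyltransferase, was called in KH cells (0.18 ± 0.06). The KH calls of Pwp2 and Nat10 were lost without any 1 of 3 and 8 libraries (adjusted p up to 0.119 without KH replicate 1 at 0 h, and 0.196 without KH replicate 2 at 144 h) and with median-ratio scaling. Nop14, Wdr75 and Rrp12 rose in DNMT3ABKO cells at 144 h, with log2 fold changes of 0.32 ± 0.06, 0.32 ± 0.12 and 0.17 ± 0.06, and Utp20 at 72 h, with a log2 fold change of 0.28 ± 0.11. The calls of Wdr75 and Rrp12 were lost without any 1 of 9 libraries and that of Utp20 without any 1 of 11, DNMT3ABKO replicate 1 at 0 h among them, with adjusted p up to 0.258, 0.201 and 0.305. Wdr43 and Noc4l had group means of 124 to 142 TPM and 65.1 to 72.4 TPM and passed in no contrast.

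Of 12 large subunit assembly factors none rose and 6 fell in KH cells at 144 h, beside 27.4% and 23.9% of all tested genes. In DNMT3ABKO cells 2 rose and 4 fell at 144 h, beside 31.4% and 26.2%, and 3 rose and 3 fell at 72 h, beside 34.3% and 21.6%. Nle1 (chr11:82900768-82908411), which recruits the remodelling ATPase Mdn1 to pre-subunits, stood at 45.5 and 48.9 TPM at 0 h, 32.6 and 33.8 TPM at 72 h and 31.5 and 32.1 TPM at 144 h in KH libraries and at 37.6 and 35.0 TPM at 0 h, 30.0 and 32.1 TPM at 72 h and 27.4 and 25.9 TPM at 144 h in DNMT3ABKO libraries. Treated libraries of each line lay below those at 0 h, with log2 fold changes in KH cells of -0.49 ± 0.07 and -0.55 ± 0.07. Those in DNMT3ABKO cells were -0.22 ± 0.07 and -0.43 ± 0.07, and the first was lost without DNMT3ABKO replicate 1 at 0 h or at 72 h (adjusted p up to 0.166). Nop16 (chr13:54584185-54590090), singled out after its values were seen, stood at 70.4 and 70.3 TPM at 0 h, 44.3 and 41.4 TPM at 72 h and 48.6 and 50.6 TPM at 144 h in KH libraries and at 68.2 and 63.4 TPM at 0 h, 43.3 and 45.3 TPM at 72 h and 52.9 and 56.6 TPM at 144 h in DNMT3ABKO libraries. Its fall at 72 h, -0.70 ± 0.07 and -0.56 ± 0.07, was the largest of any member at 72 h in KH cells and came before a partial return by 144 h that passed in DNMT3ABKO cells (0.30 ± 0.07). That return was lost without DNMT3ABKO replicate 1 at 72 h or replicate 2 at 144 h (adjusted p up to 0.0823). Gnl3, nucleostemin, a nucleolar GTPase abundant in stem cells, stood at 270.4 and 287 TPM at 0 h, 304 and 312 TPM at 72 h and 289.7 and 296 TPM at 144 h in KH libraries and at 206 and 258 TPM at 0 h, 297 and 299.6 TPM at 72 h and 255 and 277 TPM at 144 h in DNMT3ABKO libraries. It rose in DNMT3ABKO cells at 72 h (0.37 ± 0.09), where both libraries lay above those at 0 h, while the 144 h libraries overlapped those at 0 h.

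Bop1, Pes1 and Wdr12, which form a single complex in large subunit maturation, did not share one course in KH cells and were looked at after their values were seen. Bop1 stood at 99.0 and 110.0 TPM at 0 h, 81.3 and 79.2 TPM at 72 h and 73.1 and 75.2 TPM at 144 h in KH libraries and fell, with log2 fold changes of -0.38 ± 0.07 and -0.49 ± 0.07 under all 18 alternatives. Wdr12 stood at 43.4 and 45.5 TPM at 0 h, 32.9 and 32.2 TPM at 72 h and 25.7 and 38.0 TPM at 144 h, with a fall at 144 h (-0.49 ± 0.18) lost without any 1 of 9 libraries (adjusted p up to 0.354, without KH replicate 1 at 144 h). Pes1 stood at 114 and 129 TPM at 0 h, 119 and 113 TPM at 72 h and 124 and 126 TPM at 144 h and did not pass. In DNMT3ABKO cells Bop1 and Wdr12 did not pass, and Pes1, at 114 and 124 TPM at 0 h, 130.4 and 133 TPM at 72 h and 146 and 148 TPM at 144 h, rose at 144 h (0.30 ± 0.07). That Pes1 call was lost when the contrast's groups were fitted alone. Mrto4, which acts in assembly of the stalk, fell in all 4 responses, with log2 fold changes of -0.35 ± 0.08 in KH and -0.21 ± 0.08 in DNMT3ABKO cells at 144 h, the latter not without any 1 of 8 libraries (adjusted p up to 0.143, without DNMT3ABKO replicate 2 at 144 h). Nop2, an RNA methyltransferase, fell in KH cells at both times (-0.23 ± 0.06 and -0.18 ± 0.06), the first not without KH replicate 2 at 0 or 72 h (adjusted p up to 0.109, at 72 h) and the second not without any 1 of 7 libraries (adjusted p up to 0.168, without KH replicate 2 at 0 h). Noc2l, a partner of Noc3l, fell in DNMT3ABKO cells at 144 h (-0.35 ± 0.07) and Rrp1b rose there at 72 h (0.21 ± 0.07) and fell back by 144 h (-0.26 ± 0.07), calls of Rrp1b lost without any 1 of 5 and of 4 libraries (adjusted p up to 0.157 and 0.16). Grwd1, a chaperone of a ribosomal protein, had group means of 95.0 to 111 TPM and passed in no contrast.

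Between 72 and 144 h few members moved. In KH cells 2 of 43 were called, Ddx21 higher and Nop56 lower, against 22.9% of all tested genes. In DNMT3ABKO cells 5 were called, against 27.3%, with Ltv1 and Nop16 higher and Polr1d, Nop56 and Rrp1b lower. With median-ratio scaling 3 members were called in KH cells, all higher, a count given without the share of all tested genes. The DNMT3ABKO calls then numbered 11, 9 higher and 2 lower, beside 15.8% and 17.5% of all tested genes. The balance of this late step thus rests on the scale. Without either DNMT3ABKO library at 0 h, which enter these contrasts only through the shared spread, more members were called in each line. Calls over all tested genes also became more frequent in DNMT3ABKO cells. Without KH replicate 1 or 2 at 72 or 144 h none was called in KH cells.

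The lines were then compared at each time. At 0 h 1 member was called, Nle1, lower in DNMT3ABKO cells with a log2 difference of -0.37 ± 0.07, against 9.06% of all tested genes. The call was lost without KH replicate 2 at 0 h (adjusted p = 0.0863). Without DNMT3ABKO replicate 1 at 0 h 2 members were called, both lower, beside 2.59% of all tested genes, and without replicate 2 of that group 16, all lower, beside 24.1%. At 72 h 1 member was called, Ltv1, lower in DNMT3ABKO cells (-0.22 ± 0.07), against 19.3% of all tested genes. It was lost without any 1 of 8 libraries (adjusted p up to 0.196, without DNMT3ABKO replicate 2 at 72 h). With median-ratio scaling 6 members were called there, all higher, and Ltv1 was not among the calls. The share of all tested genes under that scaling is not given here, so these calls are not read as particular to the members.

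At 144 h 6 members were higher in DNMT3ABKO cells, against 11% of all tested genes, and 2 were lower, against 15.5%. The higher members were Npm1 (0.31 ± 0.10), Nhp2 (0.18 ± 0.06), Bysl (0.26 ± 0.08), Bop1 (0.27 ± 0.07), Pes1 (0.23 ± 0.07) and Noc3l (0.33 ± 0.10), and the lower ones Noc2l (-0.30 ± 0.07) and Nle1 (-0.25 ± 0.07). Both DNMT3ABKO libraries lay beyond both KH libraries for each of these 8. That also held for 22 members that were not called, while 13 overlapped, and it was not counted over all tested genes. With median-ratio scaling 9 members were higher and none lower, counts given without the shares of all tested genes and not read as particular to the members. Every one of the 8 calls was lost on leaving out at least 1 library, and the count was 0 without replicate 2 of either line at 144 h, 1 without replicate 1 of either line at 144 h and 3 without any 1 library at 72 h.

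**Figure D4:**
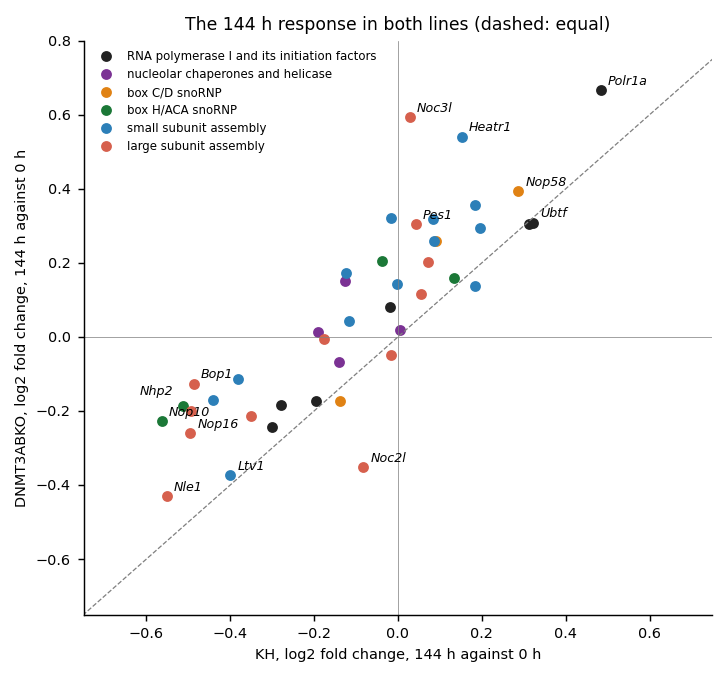
Log2 fold change at 144 h against 0 h in DNMT3ABKO cells (vertical axis) against that in KH cells (horizontal axis), 1 point per member, coloured by role; the dashed line marks equal responses. Of the 43 members, 37 lie above the line, with Noc3l farthest above it, at 0.03 in KH and 0.59 in DNMT3ABKO cells.

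Whether the lines differed in their response was tested by the difference between the fold changes of the lines. At 144 h 37 of 43 members had a higher fitted change in DNMT3ABKO cells, and the median difference was 0.16 (0.01 over all tested genes). Without DNMT3ABKO replicate 1 at 0 h that median was 0.11, with 4 members called beside 12.6% of all tested genes, and without replicate 2 it was 0.22, with 14 called beside 22.9%. The difference passed for 2 members, against 8.59% of all tested genes. They were Nhp2 (0.33 ± 0.08, adjusted p = 0.0367), which fell less in DNMT3ABKO cells, and Noc3l (0.57 ± 0.15, adjusted p = 0.0402). Noc3l (chr19:38788128-38819237), a protein of large subunit precursors, stood at 41.5 and 44.7 TPM at 0 h, 46.8 and 46.0 TPM at 72 h and 44.5 and 43.5 TPM at 144 h in KH libraries and at 32.2 and 41.2 TPM at 0 h, 48.0 and 47.6 TPM at 72 h and 52.9 and 58.2 TPM at 144 h in DNMT3ABKO libraries. KH libraries at 0 and 144 h overlapped, and in DNMT3ABKO cells those at 144 h lay above all others. Each of these 2 calls depended on single libraries: Nhp2 lost its call without any 1 of 9, with an adjusted p of up to 0.139 without KH replicate 1 at 144 h, and Noc3l without any 1 of 10, up to 0.15 without DNMT3ABKO replicate 2 at 144 h.

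At 72 h the median difference between responses was 0.17, beside 0.02 over all tested genes. Of the members, 37 had the higher fitted change in DNMT3ABKO cells. The 72 and 144 h differences share the 0 h libraries of both lines, so they are not independent. How many of all tested genes had the higher fitted change was not counted at either time. No member passed limma's test at 72 h after adjustment, against 5.23% of all tested genes. Unadjusted p was under 0.05 for 8 members, all with the higher change in DNMT3ABKO cells. Median-ratio scaling called 1 member, and leaving out DNMT3ABKO replicate 2 at 0 h called 13, beside 17.8% of all tested genes, whereas leaving out replicate 1 of that group called none, beside 6.97%. The responses of the lines, which share no library, ran together across the 43 members, with a Pearson r of 0.84 and a Spearman rho of 0.86 at 144 h. Members are not independent replicates, and this describes them only. At 144 h 11 members were called in both lines, all in the same direction. They comprised 5 that rose (Polr1a, Rrn3, Ubtf, Nop58 and Pwp2) and 6 that fell (Polr1d, Nhp2, Ltv1, Nop16, Mrto4 and Nle1). Calls at that time made up 51.3% (KH) and 57.6% (DNMT3ABKO) of all tested genes. How many of all tested genes were called in both lines was not counted, and their correlation between lines was not taken. The shared calls and the correlation are therefore not read as particular to the members.

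Features that the choice of members did not use were set beside the responses. Members with a longer coding sequence tended to have the higher fold change. In KH cells at 144 h the 14 that fell had a median longest coding length of 1359 bases (192 to 3405) and the 6 that rose 2524 bases (1608 to 5151). In DNMT3ABKO cells the 7 that fell had 717 bases (399 to 2250) and the 13 that rose 2421 bases (1608 to 6429). Spearman's rho of fold change with coding length across the 43 members was 0.56 in KH and 0.57 in DNMT3ABKO cells, against 0.23 and 0.15 across 12573 tested coding genes and 0.32 and 0.38 across 111 other assembly genes. These values are descriptions across genes of the same libraries. A shift with length over all genes thus moved beside the members' responses, and its part in them was not tested. Between replicates 1 and 2 of DNMT3ABKO cells at 0 h the rho was -0.13 across members.

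**Figure D5:**
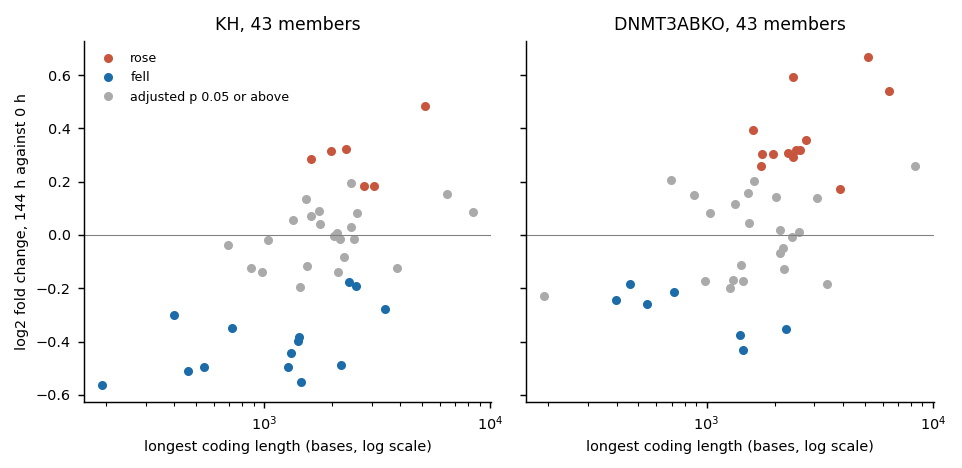
Log2 fold change at 144 h against 0 h (vertical axes) against the longest coding length of each member in bases (horizontal axes, log scale) in KH and DNMT3ABKO cells; members that rose are red, those that fell blue and the rest grey. Members under 800 bases lie at or below 0 in KH cells, and no member that rose at 144 h in either line is shorter than 1608 bases.

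A group of 7 members hold 21 small nucleolar RNA genes within their bounds on the same strand: Ncl, Nop56, Nop58, Dkc1, Wdr43, Tsr1 and Gnl3. At 144 h 1 of the 7 rose and none fell in KH cells, and 3 rose and none fell in DNMT3ABKO cells, with medians of 0.09 and 0.20. Among the other 36 members, 5 rose and 14 fell in KH cells and 10 rose and 7 fell in DNMT3ABKO cells, with medians of -0.12 and 0.02. All tested genes rose and fell in shares of 27.4% and 23.9% in KH and 31.4% and 26.2% in DNMT3ABKO cells, and the numbers were not tested against each other. The libraries were made from total RNA, and 18 members have exons that overlap those of another gene on the opposite strand, Polr1a, Nop56, Nhp2, Heatr1, Bop1 and Pes1 among them. The strand setting of the quantification was not given in the sources used here, so reads of such pairs could have been mixed. Pes1, Nop56 and Mrto4 also share 20.44%, 18.65% and 11.99% of their 50-base words with other genes.

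The rest of the pathway was taken from 4 lists, with 112 genes in all and 111 tested. In KH cells at 144 h 16 rose and 26 fell, beside 27.4% and 23.9% of all tested genes, with a median of -0.06. In DNMT3ABKO cells 33 rose and 22 fell, beside 31.4% and 26.2%, with a median of 0.07. Of 13 other RNA polymerase I genes, 3 rose and 2 fell in each line. Of 37 other small subunit genes, none rose and 9 fell in KH cells, and 10 rose and 8 fell in DNMT3ABKO cells. Of 48 other large subunit genes, 12 rose and 10 fell in KH cells, and 16 rose and 8 fell in DNMT3ABKO cells. Of 13 tested nuclear exosome genes, which trim the precursor, 1 rose and 5 fell in KH cells and 4 rose and 4 fell in DNMT3ABKO cells.

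The highest of these called genes in KH cells were Mdn1 (0.77 ± 0.13), the ATPase recruited through Nle1, Senp3 (0.48 ± 0.07), a SUMO protease, and Taf1a (0.47 ± 0.09), a subunit of the RNA polymerase I selectivity factor. The lowest were Rcl1 (-0.60 ± 0.08), Emg1 (-0.54 ± 0.06) and Pno1 (-0.52 ± 0.07), all of the small subunit. In DNMT3ABKO cells Senp3 (0.72 ± 0.07), Urb1 (0.60 ± 0.08) and Gnl2 (0.60 ± 0.08) were highest and Emg1 (-0.52 ± 0.06), Mphosph6 (-0.49 ± 0.10) and Polr2l (-0.48 ± 0.09) lowest. Emg1 and Senp3 were thus among the named genes of both lines. Of 76 cytosolic ribosomal protein genes, whose products these factors assemble, 36 rose and 2 fell in KH cells at 144 h (median 0.22), beside 27.4% and 23.9% of all tested genes, and 33 rose and 1 fell in DNMT3ABKO cells (median 0.17), beside 31.4% and 26.2%. The summed level of the 43 members was 9034 to 9643 TPM at 0 h and 8800 to 8824 TPM at 144 h in KH cells, and 8662 to 9514 TPM and 9397 to 9984 TPM in DNMT3ABKO cells, where the groups overlapped. Such a sum weighs the most abundant members, Npm1 and Ncl, most.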

How the data were processed

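RNA sequencing of bulk sorted cells was analysed in 12 libraries, 2 in each of 6 groups set by line and hours of INK128. Per the study's methods the authors made libraries from total RNA with ribosomal RNA depletion, trimmed reads with cutadapt, aligned them with STAR to mm10 and quantified a GENCODE annotation with StringTie. The submitters' processing notes name cutadapt 2.4, STAR 2.7.3a and StringTie 2.0. Values were deposited as TPM for each gene, scaled by the authors to a fixed total in each library. TPM keep no read depth, so no counting interval could be given and no count test was run. ERCC spike-ins were added by the authors, and no spike-in row is listed in the tables used here.

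Values were analysed as log2(TPM + 1) for the 15727 genes whose mean reached 1 TPM. A single limma model (limma 3.58.1, R 4.3.3) was fitted to the 6 group means, with a trended prior variance and two-sided moderated tests of 11 contrasts. P-values were adjusted by Benjamini and Hochberg over all tested genes of a contrast, and genes were called at an adjusted p under 0.05. Fold changes are on the log2(TPM + 1) scale, which understates changes of low genes. Every adjusted p printed is from limma, with 2 libraries per group. The labels do not say how replicates were separated, and the study's reporting summary describes independent repeats in general terms. P-values measure the spread between these libraries. The model was also run on simulated data with known changes in the KH group at 72 h alone and equal spread in all groups. That run does not speak to the DNMT3ABKO contrasts or to groups of unequal spread. Tables were handled with Python 3.11.15 and pandas 2.3.3.

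The members and gene lists were chosen with earlier results of these data known. Library values were named for all RNA polymerase I members, for the highest and lowest 144 h responses of each other role and line, and for members called in a difference between lines, and others were added after their values were seen, as the text says. The 18 alternatives tried were adding 0.1 TPM, keeping all 37364 genes above 0 TPM, median-ratio scaling, fitting the groups of a contrast alone, a replicate block, no variance trend, and leaving out each library. Coding lengths and overlaps came from the GENCODE vM21 annotation, on mm10, and shared sequence was counted as words of 50 bases. The 4 promoter motifs were searched in RefSeq windows of 300 bases.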

Additional observations from a re-analysis of the deposited data

Results flagged for a closer look

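The 144 h response differed between the lines for 2 members, by limma's test of the difference itself. For Nhp2 the difference was 0.326 on the log2 scale, with a fall in both lines that was smaller in DNMT3ABKO cells, and for Noc3l it was 0.566, with a rise in DNMT3ABKO cells. Each was lost without any 1 of at least 9 of the 12 libraries.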

How the results depend on the processing

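No member's call reversed direction under any of the 18 alternatives. Of 94 calls over 11 contrasts, 36 were kept under all of them. With median-ratio scaling the members' median was -0.2 and -0.096 in KH cells at 72 and 144 h against 0 h, -0.076 and 0.019 in DNMT3ABKO cells, 0.061 and 0.109 for 144 against 72 h in KH and DNMT3ABKO cells, and -0.043 and 0.064 between the lines at 0 and 144 h. The same scaling called 11 members in DNMT3ABKO cells for 144 against 72 h, 2 and 6 between the lines at 0 and 72 h and 1 in the difference between 72 h responses. Fitting only the groups of a contrast called 4 and 9 members in DNMT3ABKO cells at 72 and 144 h, 6 and 14 for 144 against 72 h in KH and DNMT3ABKO cells, 0 and 10 between the lines at 0 and 72 h, and 0 in the difference at 144 h. No filter called 1 member for 144 against 72 h in KH cells. Without the variance trend the counts were 1 and 3 for that step in KH and DNMT3ABKO cells, 0 and 4 between the lines at 72 and 144 h, and 0 in the difference at 144 h. The replicate block gave 1 and 3 for that step, 0 and 3 between the lines at 72 and 144 h, and 1 in the difference at 144 h. The differences between replicates correlated between -0.10 and 0.10 within lines, and across lines at 0.34 (KH with DNMT3ABKO cells at 0 h) and 0.13 (KH at 0 h with DNMT3ABKO at 144 h), and the other pairs across lines lay between -0.06 and 0.08. The study states that time points of a replicate were handled side by side, but not every pair was above 0.1, so the main fit has no block. A replicate block across both lines, added after seeing the data, called 0 members between the lines at 72 h and lost 5 of the 94 calls. Calls over all tested genes also changed with the setting, so counts printed here without that share are not read as particular to the members. The cause of these shifts was not tested.

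Leaving out 1 library gave 11 to 25 and 11 to 22 calls in KH cells at 72 and 144 h, with medians of -0.137 to -0.03 and -0.089 to -0.006. In DNMT3ABKO cells it gave 9 to 26 and 13 to 28, with medians of 0.021 to 0.129 and 0.012 to 0.122. For 144 against 72 h it gave 0 to 6 in KH (0.012 to 0.027) and 1 to 12 in DNMT3ABKO cells (0.027 to 0.058). Between the lines it gave 0 to 16 at 0 h (-0.154 to -0.051), 0 to 9 at 72 h (0.03 to 0.081) and 0 to 9 at 144 h (0.01 to 0.05). In the difference between responses it gave 0 to 13 at 72 h (0.12 to 0.226) and 0 to 14 at 144 h (0.089 to 0.219). A group left with 1 library was assumed to vary like the others. These counts are given without the shares of all tested genes and are not read as particular to the members.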
